A study of Rattus norvegicus with 6 samples.

Results

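The CXCR3 ligands and the interferon gamma axis comprised 6 genes, Cxcl9, Cxcl10, Cxcl11, Cxcr3, Ifng and Ifngr1. These were chosen by name, with earlier results of these data known. They were read from every probe set (a group of short probes against one transcript) annotated to 1 of these genes alone, which gave 7 probe sets of the 31042 compared, and 6 of the 14217 genes with a probe set. Cxcl9 had 2 probe sets and each other gene had 1. RNA came from whole lung of the inbred Lewis rat strain, and each animal had its own array. In the silica group, 3 rats inhaled crystalline silica dust (Min-U-Sil 5) at 6.2 mg/m3 in sessions of 6 h on 5 days of each of 6 weeks. The 3 rats of the control group breathed filtered air in chambers run alike. Age, sex and the interval from the last exposure to tissue collection are not stated in these sources.

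Interferon gamma, the product of Ifng, is made chiefly by activated T cells and NK cells. It binds a receptor of Ifngr1 and Ifngr2 chains, which acts through the kinases Jak1 and Jak2 to switch on target genes in macrophages, epithelium and endothelium. Among those targets are the chemokines Cxcl9, Cxcl10 and Cxcl11, whose shared receptor Cxcr3 is carried by activated T cells and NK cells, so that the ligands draw in cells that can make more interferon gamma.

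Signals are deposited intensities, in the units of the deposited table, and a level is compared only within a probe set. Fold changes are silica minus control of log2(signal + 16), so that changes of dim probe sets are understated, with the moderated SE of limma, a linear model that shares the spread between probe sets. Benjamini-Hochberg adjustment ran over all 31042 probe sets, and rose or fell means an adjusted p below 0.05. Means are given with SD over 3 animals a group. The 7 lung epithelial markers, among them the surfactant gene Sftpc and the club cell gene Scgb1a1, were bright on every array, with a summed signal of 115796 to 138278 in silica lungs and 130324 to 137790 in control lungs. The log2 ratio of 3-prime to 5-prime signal of the beta-actin and GAPDH control probe sets, a measure of RNA quality, was 1.15 to 1.68 on the silica arrays and 0.996 to 1.23 on the control arrays. Silica replicate 2 stood apart from the other silica arrays for the ligands and for many interferon-induced genes, and values without it are given for the 6 genes and beside those other results that it moved most. In whole lung, more cells of a type and more RNA per cell cannot be told apart.

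The 3 ligand genes had similar profiles over the arrays, and their promoters are shown first. In the RefSeq annotation of the rat assembly GRCr8 the start sites of Cxcl11, Cxcl10 and Cxcl9 follow each other on the plus strand of chromosome 14. They are 15338 bases apart from Cxcl11 to Cxcl10 and 18100 bases apart from Cxcl10 to Cxcl9. The windows are the 250 bases before each start site, chr14:16006916-16007165 for Cxcl9, chr14:15988816-15989065 for Cxcl10 and chr14:15973478-15973727 for Cxcl11, and capitals mark the motif matches described below.
Cxcl9: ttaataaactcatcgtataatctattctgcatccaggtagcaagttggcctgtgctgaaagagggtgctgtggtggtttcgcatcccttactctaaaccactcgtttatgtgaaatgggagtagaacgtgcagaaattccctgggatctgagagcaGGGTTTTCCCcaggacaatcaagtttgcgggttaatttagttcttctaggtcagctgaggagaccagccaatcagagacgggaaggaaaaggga
Cxcl10: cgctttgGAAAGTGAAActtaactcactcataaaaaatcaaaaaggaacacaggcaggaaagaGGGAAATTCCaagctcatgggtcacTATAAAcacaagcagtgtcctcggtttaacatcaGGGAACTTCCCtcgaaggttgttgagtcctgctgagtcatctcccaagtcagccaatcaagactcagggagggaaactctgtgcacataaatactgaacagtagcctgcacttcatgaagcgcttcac
Cxcl11: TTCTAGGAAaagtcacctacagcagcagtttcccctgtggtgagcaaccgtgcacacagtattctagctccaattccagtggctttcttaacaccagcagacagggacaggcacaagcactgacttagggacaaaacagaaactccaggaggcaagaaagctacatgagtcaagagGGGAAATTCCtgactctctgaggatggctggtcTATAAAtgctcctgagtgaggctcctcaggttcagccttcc
Motifs were searched on both strands: the core of the interferon-stimulated response element, GAAANNGAAA, the core of the gamma-activated site, TTCNNNGAA, the kappa B consensus bound by NF-kB, and the TATA box, TATAAA. The kappa B consensus had a match in each of the 3 ligand windows, at bases 94 to 85 before the start site in Cxcl9 and 74 to 65 in Cxcl11. Cxcl10 had 3 such matches, of which those at 128 to 119 and 127 to 118 overlap and the other lies at 187 to 178. Of 33469 rat promoter windows of the same length, 22.5% held a kappa B match. The response element core was found in the Cxcl10 window only among the 6 genes, at 243 to 234, and in 3.41% of all windows. The gamma-activated core was found in Cxcl11 alone, at 250 to 242, and in 7.67% of all windows. TATAAA occurred in Cxcl10 at 162 to 157, in Cxcl11 at 41 to 36 and in Ifng at 139 to 134, and in 12.9% of all windows. The Ifng window also held 1 kappa B match, and the Cxcr3 and Ifngr1 windows held none of the 4 motifs. These matches describe letters in a window and say nothing of whether a factor was bound.

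**Figure D1:**
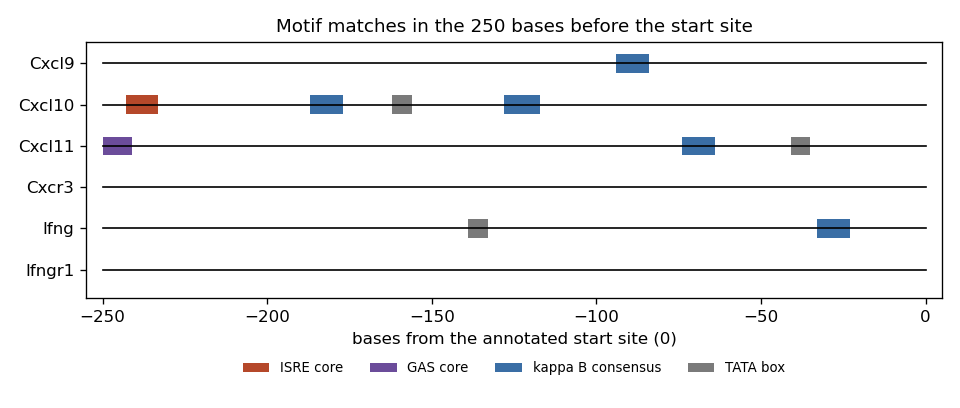
Positions of motif matches in the 250 bases before the start site of the 6 genes, with distance from the start site in bases on the x axis and 1 line per gene. A kappa B match (blue) lies in each ligand window and in Ifng, and the lines of Cxcr3 and Ifngr1 are empty.

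The comparison asked how the genes of this axis differed between silica-exposed and control lungs. Cxcl9 and Cxcl11 rose, each about 9-fold or more by the ratio of group means, and Cxcl10 showed a similar ratio with a wider spread that did not pass the test. Their receptor gene Cxcr3 had a ratio of 2.26 and missed the threshold. Ifng was dim on all arrays, and Ifngr1 was bright with groups that overlapped. At the threshold, 3 of the 7 probe sets rose and none fell, against 0.934% of all probe sets that rose. In 6 of the 7 all silica arrays lay above all control arrays, which held for 13.3% of all probe sets. As the genes were chosen with earlier results of these data known, these shares describe them and are no separate support.

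Cxcl9, also known as monokine induced by gamma interferon, was the ligand with 2 probe sets. In the brighter one, 1373544_at, the signals were 1059.1, 2532.0 and 947.2 in silica lungs and 236.8, 112.3 and 112.3 in control lungs. The highest was silica replicate 2, and the lowest silica lung was still above the highest control lung. The mean was 1512.8 ± 884 in silica lungs and 154 ± 71.9 in control lungs, a log2 fold change of 3.10 ± 0.45 (SE, limma adjusted p = 0.0458). The dimmer probe set, 1382454_at, gave 394.8, 1153.4 and 524.7 in silica lungs and 81.9, 62.8 and 85.6 in control lungs. It showed the same highest animal and the same separation, with a log2 fold change of 2.79 ± 0.38 (limma adjusted p = 0.0432). Both probe sets rose, with 95% intervals of 2.01 to 4.20 and 1.86 to 3.73.

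Cxcl11, known in humans as the ligand with the highest affinity for the receptor, gave 507.6, 1171.9 and 393.0 in silica lungs and 52.7, 43.6 and 82.4 in control lungs (probe set 1379365_at). The highest was again silica replicate 2, and the groups were apart. The mean was 691 ± 421 in silica lungs and 59.6 ± 20.3 in control lungs, a ratio of 11.6 and a log2 fold change of 3.10 ± 0.42 (limma adjusted p = 0.0422).

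Cxcl10, also known as interferon gamma-induced protein of 10 kDa, gave 280.7, 1228.6 and 325.9 in silica lungs and 77.0, 55.9 and 52.1 in control lungs (probe set 1387969_at). In silica replicate 2 the signal was several times above that of the other silica lungs, which were themselves above every control lung. The mean was 612 ± 535 in silica lungs and 61.7 ± 13.4 in control lungs, a ratio of 9.92. The log2 fold change was 2.71 ± 0.55 with a 95% interval of 1.37 to 4.04 (limma adjusted p = 0.0927), so Cxcl10 did not pass although only 14 of the 31042 probe sets (0.0451%) had an estimate as large or larger, its own included. Differences between the 3 ligands in fold change were not tested, and their intervals overlap.

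Cxcr3, the receptor, gave 294.5, 300.1 and 405.3 in silica lungs and 169.0, 121.6 and 152.0 in control lungs (probe set 1368192_at). Here silica replicate 3 was the highest and silica replicate 2 lay next to replicate 1, unlike the ligands, and the groups were apart. The mean was 333 ± 62.4 in silica lungs and 148 ± 24.0 in control lungs, with a log2 fold change of 1.09 ± 0.18 and a 95% interval of 0.66 to 1.52 (limma adjusted p = 0.057).

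Ifng gave 30.9, 50.2 and 25.4 in silica lungs and 24.8, 3.6 and 9.4 in control lungs (probe set 1370790_at). The lower quartile of all signals was 34.7 to 37.0 on the silica arrays and 33.9 to 35.2 on the control arrays, so that silica replicate 2 was the single array where Ifng lay above it. The lowest silica signal exceeded the highest control signal by under 1 unit. The log2 fold change was 0.89 ± 0.31 (limma adjusted p = 0.226) and ranged from 0.38 with pseudocount 64 to 1.71 with pseudocount 1, as the values are close to the pseudocount.

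Ifngr1, the ligand-binding chain of the interferon gamma receptor, gave 4905.6, 5272.8 and 5145.8 in silica lungs and 4781.1, 5338.3 and 5019.1 in control lungs (probe set 1369956_at). The highest and the lowest of these signals were both control lungs. The mean was 5108.1 ± 186 in silica lungs and 5046.2 ± 280 in control lungs, and the log2 fold change of 0.02 ± 0.10 had a 95% interval of -0.22 to 0.25 (limma adjusted p = 0.943).

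**Figure D2:**
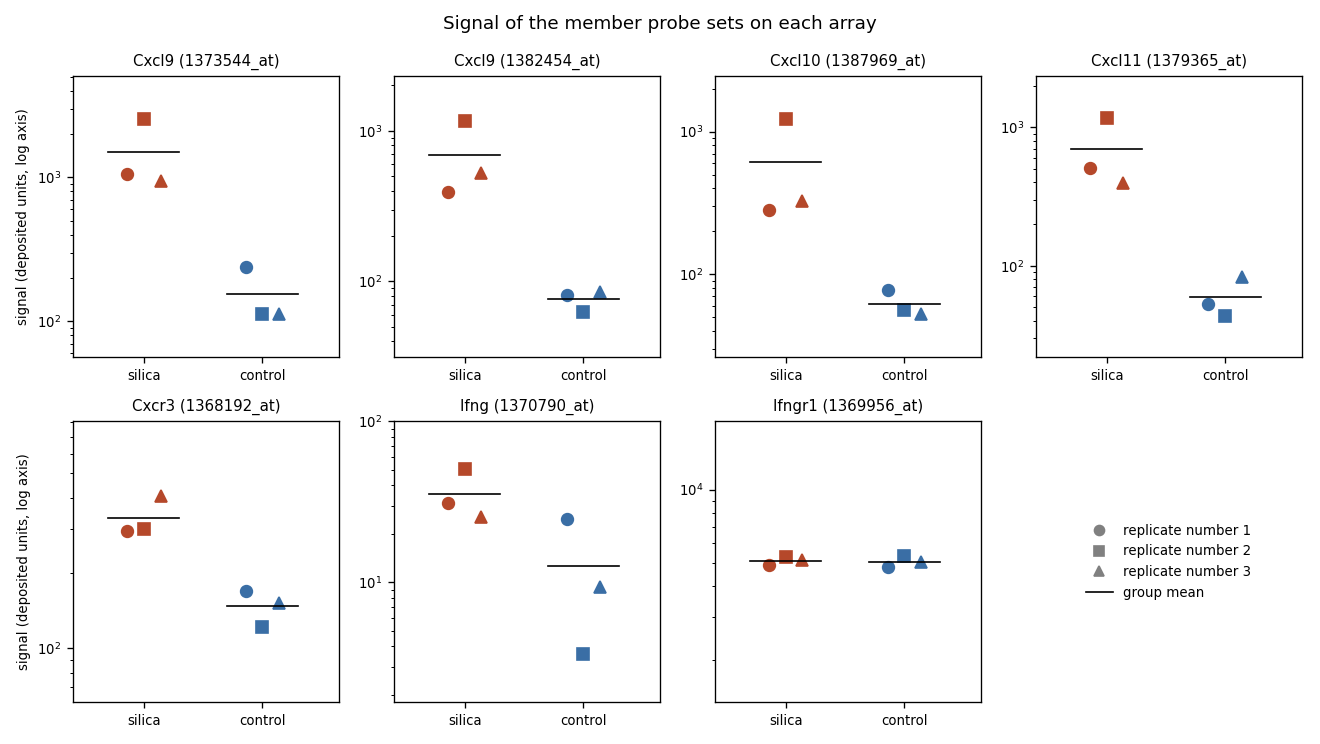
Signal of the 7 member probe sets (log axis, 1 panel each) in 3 silica and 3 control lungs, with a symbol for each replicate number and a line at the group mean. The square of silica replicate 2 is the top point for the ligands and Ifng, the triangle of replicate 3 is the top point for Cxcr3, and the Ifngr1 points overlap.

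Silica replicate 2 did not decide the direction of the ligands. Without it the log2 fold changes were 2.66 and 2.35 for the Cxcl9 probe sets, 2.65 for Cxcl11, 2.05 for Cxcl10, 1.16 for Cxcr3, 0.69 for Ifng and -0.0048 for Ifngr1. The estimate for Cxcl10 moved the most. With 5 arrays none of the member probe sets passed, at limma adjusted p of 0.0914 and 0.0597 for Cxcl9, 0.0741 for Cxcl11, 0.0673 for Cxcl10 and 0.124 for Cxcr3, where 0.00966% of all probe sets were higher. None passed either when any other single array was left out, where 0% to 0.0387% of all probe sets were higher (0.00322% without control replicate 2), or with the RNA quality ratio as a covariate, where 0 of all probe sets passed and the estimates for the ligands were 2.54 to 2.96. The calls on Cxcl9 and Cxcl11 therefore rest on all 6 arrays. Cxcl10 passed with the dimmer 50% of probe sets left out and with an intensity trend, at adjusted p of 0.0151 and 0.0187, where 6.73% and 3.68% of all probe sets were higher. Cxcr3 also passed under these settings, at adjusted p of 0.00634 and 0.00555, and with pseudocount 64, at 0.0205, where 2.28% of all probe sets were higher, so its call depends on these choices. The dimmer 50% were set by the mean over all 6 arrays, silica included. On every control array Cxcl10, Cxcl11 and the dimmer Cxcl9 probe set lay below the array median, so they stayed in through their silica signals. Cxcr3 and the brighter Cxcl9 probe set lay below the array median on control replicates 2 and 3 and above it on control replicate 1. Their silica signals thus also bear on their staying in. The passing of any of these probe sets under that setting is no separate support.

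**Figure D3:**
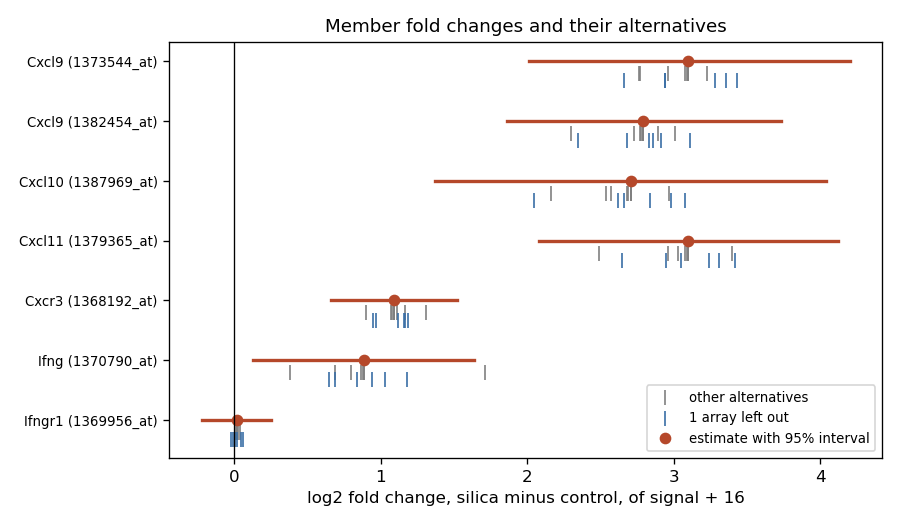
Log2 fold change (silica minus control, of signal + 16) of each member probe set, with its estimate and 95% interval in red and, under it, the estimates with 1 array left out (blue) or another alternative (grey). All ticks of the 4 ligand probe sets lie above 2, those of Ifng spread from 0.38 to 1.71, and those of Ifngr1 lie around 0.

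Upstream of Ifng, 14 of 23 genes listed for its induction were measured, of which 1 rose and none fell, with a median log2 fold change of 0.49 against 0.02 over all genes. Over all genes by their brightest probe set, 1.55% rose. The lists here and below were chosen with earlier results of these data known, so shares over them are no separate support. With any single array left out no gene of this list or of the other pathway lists below passed. The gene that rose was Il2rb, the receptor chain shared by interleukins 2 and 15 on T and NK cells, with 660.4, 841.2 and 717.0 in silica lungs and 345.7, 399.6 and 364.9 in control lungs (log2 fold change 0.96 ± 0.13, limma adjusted p = 0.0419). Eomes and Stat4, transcription factors that drive Ifng in lymphocytes, had log2 fold changes of 0.65 and 0.58 (limma adjusted p of 0.0606 and 0.0649). A second, dimmer Eomes probe set had 1.25. For both factors all silica lungs were above all control lungs. The subunit genes of interleukin 12, which induces Ifng, were dim. Il12a had 12.9, 6.7 and 9.4 in silica lungs and 26.3, 24.9 and 24.2 in control lungs (-0.69, adjusted p = 0.0691), and Il12b overlapped between groups (0.37, adjusted p = 0.577). Il18, the gene of another inducer, had 0.21 (adjusted p = 0.349). Its inhibitor Il18bp, itself induced by interferon gamma and named after its values were seen, had 602.9, 1330.7 and 522.8 in silica lungs and 297.8, 259.6 and 272.8 in control lungs (1.39, adjusted p = 0.136, and 0.98 without silica replicate 2). Tbx21, the lineage factor of interferon gamma-producing T cells, was not analysed here.

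Of 14 genes listed for signalling from the receptor, 13 were measured, with a median of 0.09. None fell and 1 rose, against 1.55% of all genes. That gene was Irf8, an interferon gamma-induced transcription factor of myeloid cells, with 1040.0, 1270.3 and 1255.4 in silica lungs and 609.9, 585.3 and 636.4 in control lungs (log2 fold change 0.94 ± 0.12, limma adjusted p = 0.0399). Irf1, an interferon-induced transcription factor that drives the ligand genes, had 2803.7, 5151.8 and 2733.3 in silica lungs and 1521.5, 1436.7 and 1533.3 in control lungs. The top animal was silica replicate 2, the groups were apart, and the log2 fold change of 1.18 ± 0.26, or 0.88 without that animal, did not pass (limma adjusted p = 0.105 and 0.0896). The second receptor chain Ifngr2 had 0.25 and a dimmer probe set -0.23, Jak1 -0.07 and Jak2 0.03, all without a call. Socs1, a feedback inhibitor of this pathway, was dim, with 8.8, 8.2 and 14.0 in silica lungs and 19.2, 32.6 and 40.5 in control lungs (-0.81, adjusted p = 0.135), and its other probe set had -0.05. The fourth gene by p in this list was Irf9, with 0.33 (adjusted p = 0.219), and a dimmer Irf9 probe set had 0.47 without a call.

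Downstream, 27 of 33 listed interferon gamma targets were measured. Of these 2 rose, against 1.55% of all genes, none fell, and the median was 0.84, or 0.77 without silica replicate 2. In 25 the estimate was above 0, as in 7628 of all 14217 genes. In 22 of the 27 all silica lungs were above all control lungs, against 18.7% of all genes. In 1, Icam1, all silica lungs were below all control lungs (-0.21, limma adjusted p = 0.367), as in 1802 of all 14217 genes. The other estimate below 0 was that of B2m (-0.0051), and both genes were named after their values were seen. The target list was chosen with earlier results known, so these shares are a description. The genes that rose were Ciita, the switch for class II antigen presentation genes, and Ubd, a ubiquitin-like modifier. Ciita had 445.4, 571.4 and 479.7 in silica lungs and 225.0, 232.6 and 265.9 in control lungs (log2 fold change 1.00 ± 0.13, limma adjusted p = 0.0421), and a dimmer Ciita probe set had 0.64 (adjusted p = 0.0865). Ubd had 904.7, 2098.8 and 830.7 in silica lungs and 213.7, 130.4 and 189.6 in control lungs (2.63 ± 0.38, limma adjusted p = 0.0458), and 2.21 without silica replicate 2 (adjusted p = 0.0749). Tap1, a peptide transporter, and Psmb8, an immunoproteasome subunit, followed at 1.46 and 0.99 (adjusted p of 0.0681 and 0.0694), with a dimmer Tap1 probe set at 0.14. Gbp2, a guanylate-binding protein of host defence, had 3520.6, 9747.5 and 3757.1 in silica lungs and 1986.8, 1662.9 and 1688.8 in control lungs (1.50 ± 0.40, limma adjusted p = 0.149). Ido1, a tryptophan-degrading enzyme, had 63.4, 262.3 and 48.7 in silica lungs and 16.2, 21.0 and 1.1 in control lungs (2.04 ± 0.60, limma adjusted p = 0.179). In both, silica replicate 2 was far above the other silica lungs, which still lay above every control lung, and without it the log2 fold changes were 1.03 for Gbp2 and 1.39 for Ido1. Cd274 was not analysed here.

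The silica animal that led the ligands also led these targets, but not the T cell markers. It was replicate 2, which was the highest silica lung in 26 of the 27 targets, the exception being Nos2, and in 25 of 27 after quantile normalization, against 34.3% of all genes. The median target stood 0.81, 1.19 and 0.73 above the control mean in silica replicates 1, 2 and 3. In T cell markers, silica replicate 3 was the highest in 8 of 11 and silica replicate 2 in 1 of 11, and their medians were 0.95, 0.94 and 1.12. NK and cytotoxic markers had 6 of 12 highest in silica replicate 2, with medians of 0.93, 0.97 and 0.86. Silica replicate 2 was also the highest in 3 of 5 neutrophil markers, whose medians were 0.50, 1.24 and 0.27, and in 6 of 7 lung epithelial markers, or 3 of 7 after quantile normalization. The RNA quality ratio of silica replicate 2 was 1.50, between those of the other silica arrays. With 1 animal at this level, the part of any of these in the result was not tested.

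**Figure D4:**
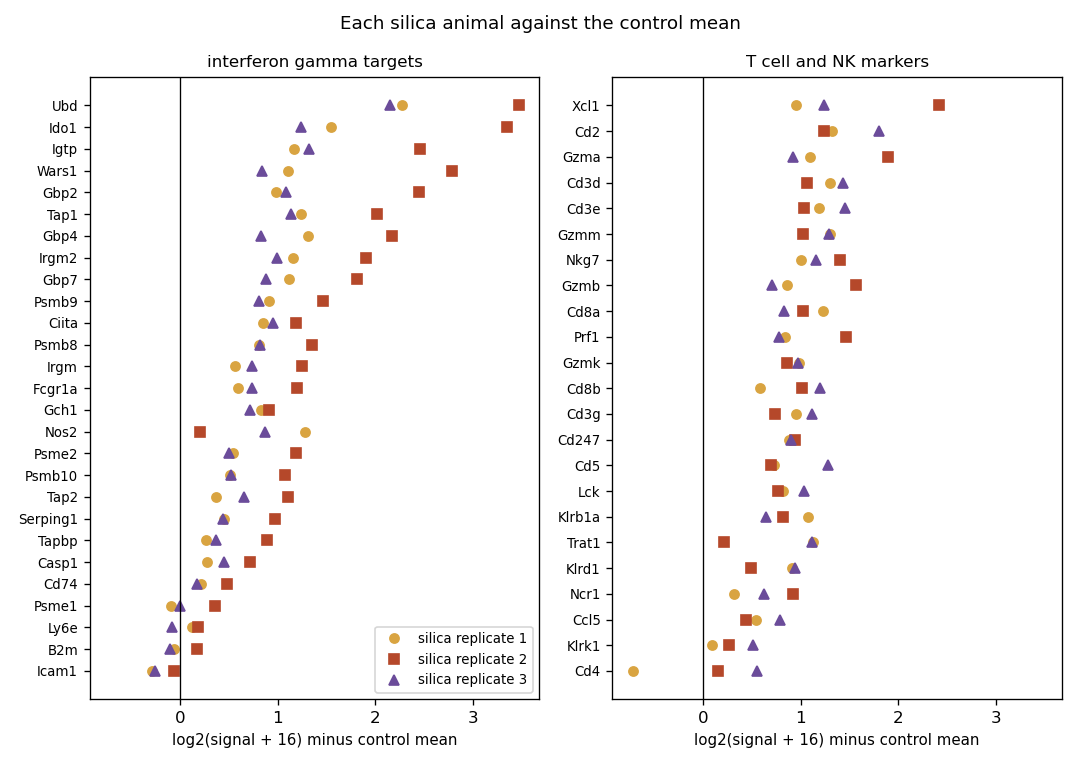
Log2(signal + 16) less the control mean in each silica animal, for 27 interferon gamma targets (left) and 23 T and NK cell markers (right), 1 row per gene. The squares of silica replicate 2 lie right of the other symbols in all targets but Nos2, and among the T and NK markers no replicate leads throughout.

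Of 11 markers of T cells, which can carry Cxcr3, 6 rose, against 1.55% of all genes, and none fell. In 10 the estimate was above 0, as in 7628 of all 14217 genes, and the median was 0.93. The estimate below 0 was that of Cd4 (-0.0059), whose groups overlapped and which was named after its values were seen. The T cell receptor chain genes Cd247, Cd3d and Cd3e and the kinase gene Lck led the T cell markers by p. Their log2 fold changes were 0.91, 1.27, 1.23 and 0.87 (limma adjusted p of 0.0307, 0.0338, 0.0361 and 0.0405). Dimmer probe sets had 0.62 for Cd247, without a call, and 1.11 for Cd3e, with one. The summed signal of the T cell markers was 6309 to 7800 in silica lungs and 3182 to 3773 in control lungs. Of 12 NK and cytotoxic markers 2 rose, the granzyme gene Gzmm (1.20) and the granule protein gene Nkg7 (1.19), with a median of 0.98. Both counts, and that of the macrophage markers below, were 0 with any single array left out, with the replicate number as a block, with the RNA quality covariate and with pseudocount 1. The medians ranged from 0.84 to 1.10 for T cell markers and from 0.86 to 1.09 for NK and cytotoxic markers over the alternatives. Gzmk and Klrb1a had 0.93 and 0.85 without a call. The summed signal of the NK and cytotoxic markers was 16626 to 19313 in silica lungs and 9084 to 9985 in control lungs.

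Among the cells that make the ligands, 3 of 9 macrophage and monocyte markers rose, against 1.55% of all genes. These were the integrin genes Itgam (1.53) and Itgax (0.83) and the lysosomal gene Cd68 (0.88), and the list median was 0.62. Adgre1 had 0.62 (adjusted p = 0.0733). Of the others, named after their values were seen, Cd14 had 0.82, Csf1r 0.10, Mrc1 0.03, Ccr2 -0.21 and Cd163 -0.45, all without a call. Their summed signal was 16219 to 18483 in silica lungs and 12054 to 12732 in control lungs. None of 5 endothelial and none of 7 lung epithelial markers passed, with medians of -0.12 and -0.13, while limma at an unadjusted p under 0.05 gave 1 and 2 lower, against 7.24% of all genes. Over the alternatives the endothelial median ran from -0.24 with the RNA quality covariate to -0.06 without control replicate 2. The epithelial median ran from -0.26 without silica replicate 2 to -0.03 after quantile normalization. The summed signal of the endothelial markers was 20691 to 23573 in silica lungs and 23813 to 25141 in control lungs. Of those markers Kdr had -0.33, Tie1 -0.14, Vwf -0.12 and Tek -0.09, and of the epithelial ones Epcam -0.28, Ager -0.24, Sftpb -0.18 and Sftpc -0.12. The rest, named after their values were seen, were the endothelial Pecam1 (0.04) and the epithelial Scgb1a1 (-0.13), Sftpa1 (-0.10) and Sftpd (0.05). Dimmer probe sets had -0.43 for Kdr and 0.05 for Sftpb. No neutrophil marker of 5 passed (median 0.65, or 0.35 without silica replicate 2, with 2 higher at an unadjusted p under 0.05 by limma, against 12.6% of all genes). S100a9 had 0.95, S100a8 0.65, Fcgr3a 0.30 and Camp 1.02, and the summed signal was 10803 to 17359 in silica lungs and 6421 to 8205 in control lungs. No B cell marker of 3 passed (median 0.07, or 0.20 without silica replicate 2 and -0.01 without silica replicate 3, with 1 higher at an unadjusted p under 0.05 by limma), with Blnk at 0.81, Cd79b at 0.07 and Ms4a1 at 0.07 and a summed signal of 898 to 910 in silica lungs and 648 to 749 in control lungs. The part of cell numbers in the ligand values was not tested.

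**Figure D5:**
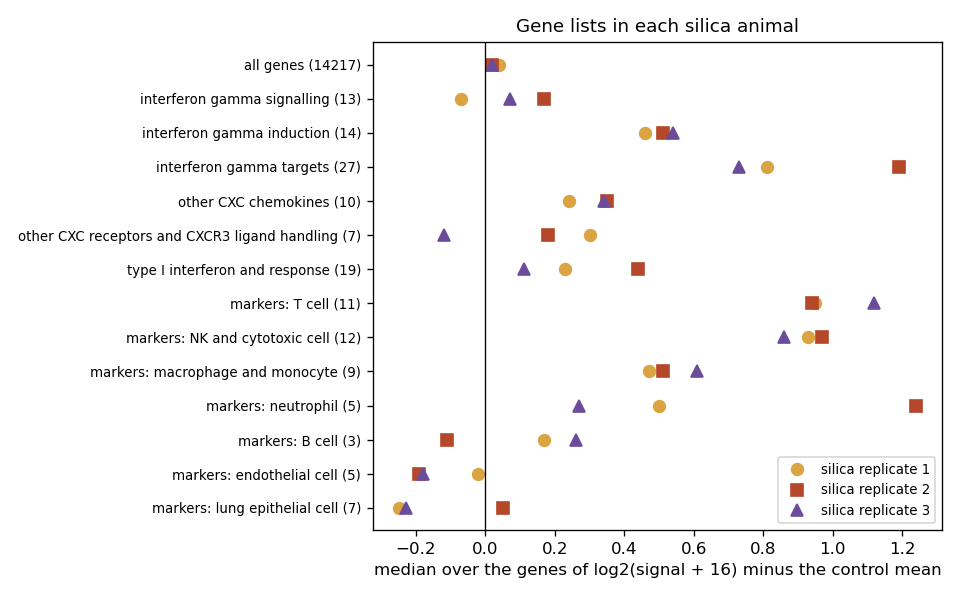
Median over each list of log2(signal + 16) less the control mean, in each of the 3 silica animals, with the number of measured genes in brackets. Silica replicate 2 stands to the right in the interferon gamma targets (1.19) and neutrophil markers (1.24), silica replicate 3 in the T cell markers (1.12), and the median of all genes lies near 0 in each animal.

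Of 10 measured other CXC chemokines none fell and 2 rose, against 1.55% of all genes, with a median of 0.29. These were the neutrophil attractants Cxcl6, with 95.6, 131.7 and 78.7 in silica lungs and 9.8, 21.0 and 9.4 in control lungs (2.00 ± 0.22, limma adjusted p = 0.0319), and Cxcl2 (1.22, limma adjusted p = 0.0399). Cxcl1, a further neutrophil attractant, had 1.01 (adjusted p = 0.0628), and Cxcl13, which attracts B cells, 1.64 (adjusted p = 0.104). Of the rest, named after their values were seen, Cxcl16 had 0.44, Cxcl14 0.13, Pf4 0.03, Ppbp 0.02, Cxcl3 -0.10 and Cxcl12 -0.25, all without a call. Whether these differed from the CXCR3 ligands in fold change was not tested. Among 7 other receptors and proteins that handle the ligands none passed (median 0.17), and limma at an unadjusted p under 0.05 also gave 0. Dpp4, a protease known in humans to trim the CXCR3 ligands, had 2062.6, 1685.7 and 1969.0 in silica lungs and 2109.9, 2177.9 and 2449.7 in control lungs. All silica lungs were below all control lungs, but the log2 fold change of -0.24 did not pass (limma adjusted p = 0.379), and a dimmer Dpp4 probe set had -0.50 (adjusted p = 0.087). Ackr3, a scavenging receptor of Cxcl11, had 0.23, Ackr1, which binds many chemokines, 0.21, and Cxcr4 0.16.

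Type I interferons also induce Cxcl10 and Cxcl11. Of 19 measured genes of the type I interferons, their receptor and their response 1 rose, against 1.55% of all genes. None fell, and the median was 0.28. The gene that rose was Stat2 (1.09 ± 0.13, limma adjusted p = 0.0394), with 1790.2, 1779.1 and 1485.0 in silica lungs and 762.9, 883.3 and 706.2 in control lungs. A dimmer Stat2 probe set had 0.81 (adjusted p = 0.0627). The antiviral genes Mx1, Ifit3 and Dhx58 had 0.54, 0.60 and 0.77 without a call (adjusted p of 0.0691, 0.177 and 0.206). Dimmer Dhx58 probe sets differed, with 0.34 and 1.32 (limma adjusted p of 0.339 and 0.0564). Ifnb1, named after its values were seen, had signals of 1.3 to 6.1 in silica lungs and 1.7 to 3.3 in control lungs, far below the lower quartile of each array. Silica replicate 2 was the highest silica lung in 11 of these 19 genes, in 26 of the 27 interferon gamma targets and in 34.3% of all genes. The parts of interferon gamma and of type I interferons in the ligand values were not tested.

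The genes with the most similar profile were ranked by the root mean square difference over the 6 arrays of log2 values less the control mean, among 10108 genes with a mean log2 value of at least 7. The same gene, Ubd, was nearest to each of Cxcl9, Cxcl10 and Cxcl11, at 0.41, 0.31 and 0.39. The ligands were among each other's 5 nearest genes, between 0.42 and 0.48 apart. The monocyte attractant gene Ccl7 was in the 5 nearest of all 3 ligands, Ccl2, another monocyte attractant, in those of Cxcl9 and Cxcl11, and the transcription factor gene Batf2 in those of Cxcl10. Batf2 shared the high silica replicate 2, with 368.3, 1994.3 and 326.3 in silica lungs and 169.0, 130.0 and 154.4 in control lungs, and its log2 fold change was 1.95, or 1.12 without that animal. Ccl2 did not show it to that degree, with 1431.6, 1913.2 and 1664.0 in silica lungs and 203.5, 172.6 and 210.1 in control lungs. Nearest to the dim Ifng were Blnk, Kif22, Klrg1, Mcm5 and Ccnb2, at 0.18 to 0.22. Klrg1 is a receptor of differentiated T and NK cells, Blnk a B cell adaptor, and Kif22, Mcm5 and Ccnb2 are cell division genes. These distances include the difference between the groups and are given as a description. Only 14 of the 31042 probe sets had a log2 fold change of at least that of Cxcl10, so few genes could lie near the ligands. The mean used to choose the ranked genes included the silica arrays. Cxcl10, Cxcl11 and Ccl7 were below a log2 value of 7 on every control array and entered through their silica signals. The closeness of the ligands is therefore no separate support.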

How the data were processed

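Lung RNA of 6 rats was measured on 1-colour short-oligonucleotide arrays with biotin-labelled cRNA, 1 array per animal, per the labels' protocols. The deposited values are linear signal intensity values, 1 per probe set and array. How they were summarised and filtered is not stated in these sources. Their trimmed mean was 500.14 to 500.15 on every array, which is what scaling to a common mean gives. Precision is limited by the number of arrays.

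The 57 control probe sets were left out. Gene names came from the platform annotation, updated to RefSeq symbols by identifier for 20758 of 20826 probe sets with 1 gene; 436 had several and 9780 none. All 6 members matched a RefSeq promoter. List genes are read from their brightest probe set.

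Values were taken as log2(signal + 16). Groups came from the sample titles. limma 3.58.1 in R 4.3.3 compared silica with control (lmFit and eBayes, group only, 4 residual and 2.18 prior degrees of freedom) over all 31042 probe sets with Benjamini-Hochberg adjustment. The fit was tested on simulated data. With 3 animals a group, the smallest p of an exact permutation test is 0.1. Named were all members, 16 pathway genes whatever their values, the 4 genes with the smallest p in each of 13 lists, and the 5 nearest profiles to each ligand and Ifng, leaving out genes without an established symbol. Members and lists were chosen with earlier results of these data known. Alternatives were quantile normalization, median centring, leaving out the dimmer 50%, an intensity trend with robust spread, a replicate block, pseudocounts 1 and 64, array weights, an RNA quality covariate, each array left out, adjusted p under 0.01 and averaging a gene's probe sets.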

Additional observations from a re-analysis of the deposited data

How the results depend on the processing

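The 3 member calls, 335 calls in total and 7 calls on pathway list genes stayed within 1.5 times under quantile normalization, median centring and array weights. With the dimmer 50% of probe sets, by their mean over all arrays with silica included, left out there were 5 member, 1675 total and 32 list calls. With an intensity trend and robust spread there were 5, 1862 and 36. Of all calls 86.6% were higher in silica, against 62.3% and 61.3% under these settings. Pseudocount 64 gave 4, 919 and 23 calls, and pseudocount 1 gave 0, 43 and 0. The RNA quality covariate gave 0, 0 and 0, with 5 member probe sets and 3184 of all at an unadjusted p under 0.05 by limma. At adjusted p under 0.01 there were 0, 6 and 0. Averaging a gene's probe sets gave 18 list calls. Leaving out 1 array gave 0 member calls and 0 list calls for each array, and 0 to 12 in total, with 4024 to 5427 at an unadjusted p under 0.05, and fewer arrays leave fewer degrees of freedom. For the other alternatives the cause was not tested.

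With the replicate block there were 0 member, 1 total and 0 list calls. Deviations of same-numbered arrays correlated at 0.092, 0.035 and 0.088, and those of the other pairs at -0.079 to -0.002. Each array thus correlated best with its own number, a hint of pairing from the data. Deviations from a group mean sum to 0 within the group, so the negative values of the other pairs are no separate evidence. The sample titles name no pairs, and whether the arrays were paired was not tested. The block uses up degrees of freedom, and fold changes were the same.

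The 6 probe sets of the ligands, Cxcr3 and Ifng stayed above 0 in every alternative that gave a value. Ifng had none with the dimmer 50% left out. Ifngr1, close to 0, ran from -0.02 to 0.06 with 1 array left out, below 0 without control replicate 1 and without silica replicate 2 (-0.0048). Marker list calls, 6 for T cells, 2 for NK and cytotoxic cells and 3 for macrophages and monocytes, became 8, 9 and 4 with the dimmer 50% left out, 9, 9 and 5 with an intensity trend, and 9, 8 and 4 with pseudocount 64. Other genes near 0 changed sign. With 1 array left out Jak2 ran from -0.12 to 0.13, Cd79b from -0.02 to 0.17, Ms4a1 from -0.03 to 0.20 and Tie1 from -0.24 to 0.03, and with the RNA quality covariate Ackr3 and Camp had -0.02 each. Dim probe sets, Ifng, Socs1, Il12a and Ido1 among them, are near the pseudocount, which limits what their fold changes can show.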
